A study of Mus musculus with 85 samples.

Results

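The mitochondrial respiratory chain beyond complex I is built from complex II (succinate dehydrogenase), complex III (the cytochrome bc1 complex), complex IV (cytochrome c oxidase) and complex V (ATP synthase). Their nuclear-encoded subunits were followed here as 47 genes of the 37368 in the expression table: every row named Sdha to Sdhd, or with a symbol starting with Uqcr, Cox4 to Cox8 or Atp5, apart from 7 rows named as pseudogenes. Complex II gave 4 members, complex III 8, complex IV 18 and complex V 17. All 85 libraries came from wild-type B6C3F1/J mouse preimplantation embryos cultured in KSOM, and RNA was primed on its poly(A) tails and pre-amplified by Smart-seq2. Standard medium contained glucose and pyruvate at 0.2 mM each, and L-lactate at 5 mM. Ages are hours after the ovulation-inducing hormone hCG. The 12 standard groups were early 2-cell (34 h, n = 3), mid 2-cell (42 h, n = 4), late 2-cell (48 h, n = 3), very late 2-cell (52 h, n = 3), early 4-cell (55 h, n = 4), late 4-cell (62 h, n = 4), early 8-cell (66 h, n = 3), late 8-cell (74 h, n = 2), morula (78 h, n = 6), early 16-cell (80 h, n = 5), early 32-cell (90 h, n = 4) and blastocyst (114 h, n = 4). Medium without pyruvate was used for mid 2-cell (42 h, n = 4), late 2-cell (48 h, n = 5), very late 2-cell (52 h, n = 4) and latest 2-cell embryos (55 h, n = 4), morulae (78 h, n = 5) and blastocysts (114 h, n = 5), and medium without lactate for morulae (78 h, n = 5) and blastocysts (114 h, n = 4). A last group of pyruvate-free morulae (78 h, n = 4) also received 20 nM KY-PYR-9, which the labels call a myc inhibitor.

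As background, complex II takes electrons from succinate in the citric acid cycle, complex III passes electrons from ubiquinol to cytochrome c, complex IV hands them to oxygen, and complex V turns the resulting proton gradient into ATP. Apart from complex II, each also holds subunits encoded in mitochondrial DNA, so its assembly draws on both genomes. The early mouse embryo inherits its mitochondria and a store of transcripts from the oocyte, begins its own transcription by the 2-cell stage, and depends on pyruvate and lactate before it can use glucose well.

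Library depth, inferred by taking the most frequent low CPM value as 1 read, ran from 10.2 M to 42.6 M reads, with a median of 19.6 M. The number of embryos per library is not given, and p-values reflect the scatter among libraries of a group, which may be technical. Levels are in CPM, a gene's reads scaled to the total of its library, so they are shares, and fewer cells of a type and less RNA per cell cannot be told apart. Differences were tested with limma on log2(CPM + 1), with p-values adjusted over all genes tested and a threshold of 0.05; fold changes on this scale understate the change of low genes. Standard morula libraries 1 and 2 stood apart in the share of reads in their 100 most abundant genes, 34.7% and 30.1%, against 24.2% to 25.5% in the other 4 morula libraries. The column names of all standard blastocyst libraries carry the letters PVA, and those of no other group used here do. What the letters mark is not given. In any comparison with standard blastocysts it cannot be told apart from stage or medium. Among markers of cells around the embryo, summed over each list, sperm genes (5 found) reached at most 4.10 CPM in any library, cumulus and granulosa genes (7) 10.2 CPM and the 2 blood genes found, Hba-a1 and Hba-a2, 88.2 CPM. The blood sum moved with several groups: it was 1.04 to 2.22 CPM at 34 h, 30.03 to 49.9 CPM at 48 h and 53.4 to 72.6 CPM at 52 h in standard medium, 14.6 to 27.1 CPM at 52 h without pyruvate, and 0.114 to 1.09 CPM in the standard blastocyst; its part in the members' values was not tested. Cox6c2 is annotated as a processed pseudogene close in sequence to Cox6c, so reads of this pair may be shared. Whether counting used the strand is not given, and 19 of the 47 members overlap another annotated gene, such as Gabpa for Atp5j, Cbarp for Atp5d, Emc8 for Cox4i1, Haus1 for Atp5a1, Pdzd9 for Uqcrc2 and Vps13b for Cox6c, so their reads are partly uncertain.

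Summed over the 47 members, transcript level was lowest in the early 2-cell embryo and highest in the blastocyst. The sum was 1642 ± 124 CPM at 34 h (SD, n = 3), 3646 ± 230.1 at 48 h (n = 3), 7232 ± 559 in the early 8-cell embryo (n = 3), 11831 ± 236 in the early 32-cell embryo (n = 4) and 30987 ± 2748 in the blastocyst (n = 4). Of the 47, 40 had their highest standard group in the blastocyst: 4 of 4 in complex II, 8 of 8 in complex III, 11 of 18 in complex IV and 17 of 17 in complex V. The lowest group was the early 2-cell embryo for 30. For the 38 members at 1 CPM or more at both ends, the blastocyst level was a median of 50.9 times the early 2-cell level (range 0.024 to 816). Per kilobase of transcript, blastocyst levels ran from 50.1 (Sdha) to 354 (Sdhb) CPM in complex II, from 293 (Uqcrc2) to 2022 (Uqcr10) in complex III, from 0.0413 (Cox8c) to 3131 (Cox6b1) in complex IV and from 32.5 (Atp5g2) to 1947 (Atp5b) in complex V, with medians of 90.8, 748, 642 and 619.6. Levels within each complex were thus spread widely between subunits. Cox4i2, Cox6a2, Cox7b2, Cox8c and Atp5g2 stayed under 20 CPM in every group and are described by their counts.

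**Figure D1:**
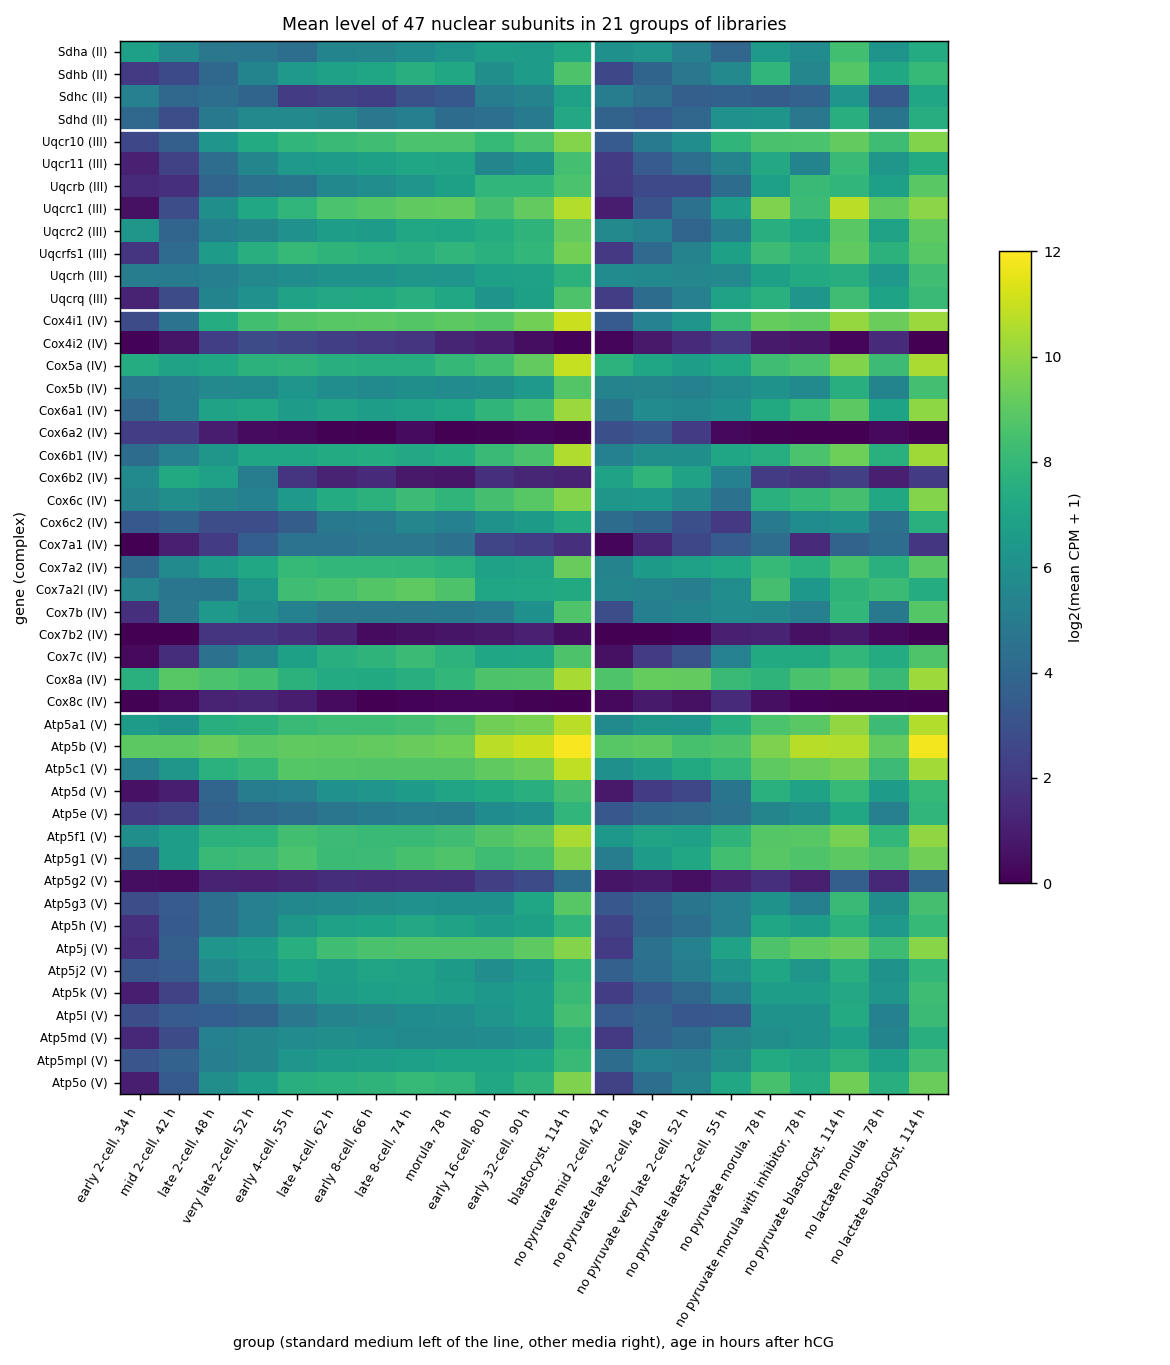
Heat map of the 47 members (rows, named with their complex) in the 21 groups (columns, with age in hours after hCG); colour is log2 of the group's mean CPM plus 1, standard medium lies left of the white line and the other media right of it. Most rows run from dark in the early 2-cell column to bright in the blastocyst column, while Cox6b2 and Cox6a2 are brighter early than late and Cox7a1 and Cox7a2l are brightest between the 4-cell embryo and the morula.

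**Figure D2:**
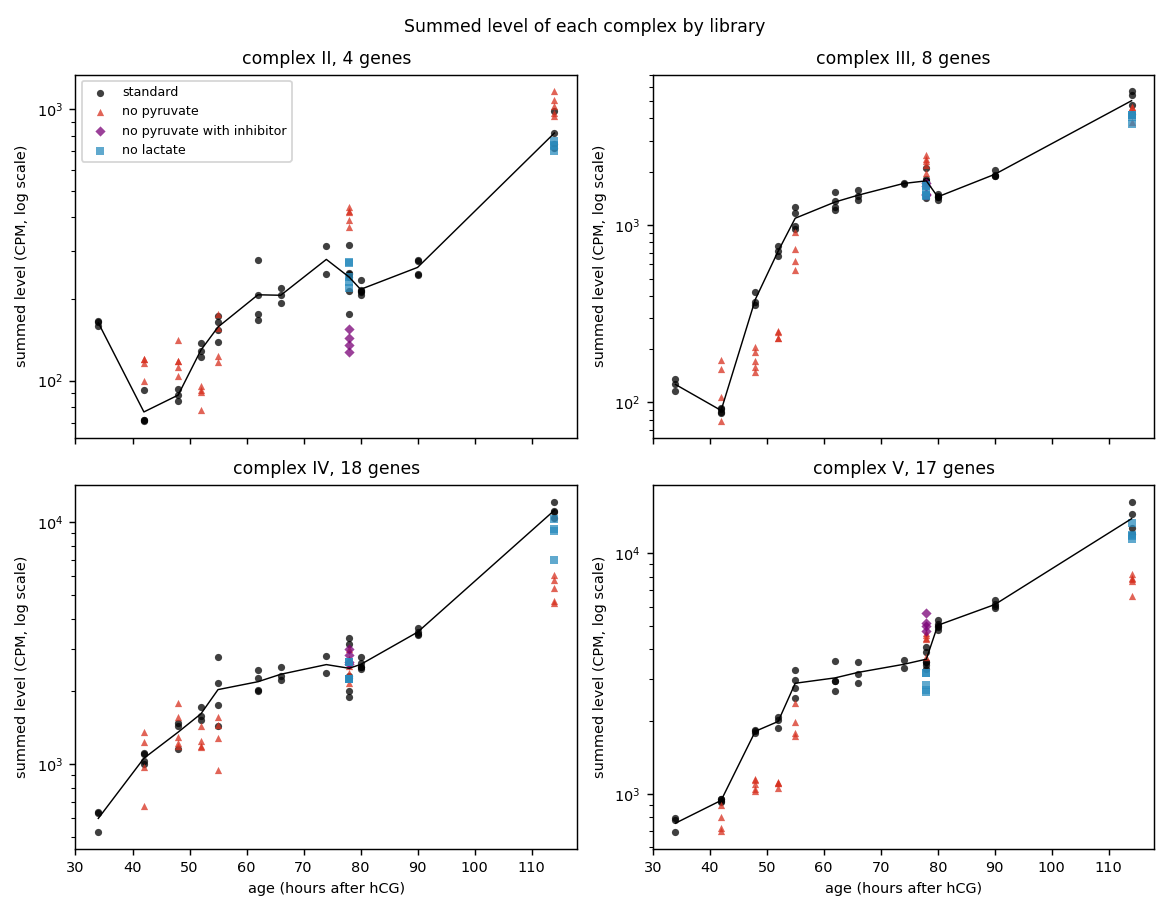
Summed CPM (log axis) of the members of each complex in every library against age in hours after hCG; each point is 1 library, shape and colour give the medium, and the line joins the means of the standard groups. At 114 h complex V spans 12029.7 to 16390.4 CPM in standard and 6639.6 to 8223 CPM in pyruvate-free libraries, whereas complex II spans 720.1 to 985 and 949 to 1167 CPM.

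Between 34 and 48 h in standard medium the embryo stays at 2 cells and turns on its own genome. On the deposited scale 37 of 47 members rose and 5 fell, while 24 rose and 15 fell under median-ratio scaling, 27 and 12 under quantile scaling, and 31 and 10 with the length trend removed. Of all genes tested, 57.7% rose and 13.7% fell on the deposited scale, and the median log2 change was 2.00 for the members and 0.85 for all genes. Median-ratio scaling brought the median of all genes to -0.02. The deposited-scale rise covered 2 of 4 members of complex II, 6 of 8 of complex III, 13 of 18 of complex IV and 16 of 17 of complex V. Rises of 23 members and falls of 5 held in all 4 settings, among the rises those of Uqcrc1, Uqcrfs1, Cox4i1, Cox7b, Cox7c, Atp5j and Atp5o. Higher genes made up 80.8% of all calls in the deposited scale and 47.2%, 46.3% and 48.9% under these settings.

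The 4 genes of complex II did not move together. Sdha, the flavoprotein with the succinate site, read 107, 109 and 109.5 CPM in the 3 early 2-cell libraries and 23.5, 24.8 and 28.8 CPM in the 3 late 2-cell libraries. Every late library lay below every early one (log2 change -2.04, SE 0.21, adjusted p = 1.2e-11). Sdhb, the iron-sulfur subunit, read 2.68, 3.19 and 3.41 CPM early and 15.3, 15.4 and 15.5 CPM late, with no overlap (log2 change 2.00, SE 0.22, adjusted p = 1.1e-10), and did not pass under median-ratio or quantile scaling. The ratio of Sdha to Sdhb per transcript length went from 13.96 ± 1.92 at 34 h to 0.658 ± 0.0704 at 48 h (mean ± SD). It was 0.0916 ± 0.0257 in the early 4-cell embryo, 0.214 ± 0.0585 in the morula and 0.690 ± 0.0341 in the early 16-cell embryo. The early 32-cell embryo had 0.389 ± 0.0183 and the blastocyst 0.152 ± 0.0441, so the course was not a steady fall. Of the membrane anchors, Sdhc fell by 0.87 on the log2 scale (19.4 ± 0.324 against 36.3 ± 2.26 CPM) and Sdhd had a log2 change of 0.80, which turned to -0.93 under median-ratio scaling. Complex II made up 9.999% of the members' summed level at 34 h and 2.44% at 48 h.

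In complex III the core protein Uqcrc1 made the largest rise of any member on the deposited scale. It read 0.361, 0.373 and 0.602 CPM at 34 h and 49.3, 67.7 and 68.9 CPM at 48 h (log2 change 5.43, SE 0.28, adjusted p = 1e-20). Its core partner Uqcrc2 moved the other way, from 74.2, 79.1 and 87.9 to 34.0, 35.3 and 35.5 CPM in the 3 libraries of each group (log2 change -1.18, SE 0.17, adjusted p = 5.8e-08). The groups did not overlap for either gene, so the 2 core proteins of the same complex moved in opposite directions. Uqcrfs1, the Rieske iron-sulfur protein that carries electrons toward cytochrome c1, went from 2.602 ± 0.348 to 95.8 ± 8.85 CPM (log2 change 4.75, SE 0.16, adjusted p = 1.5e-26). Cyc1, which encodes cytochrome c1 of the same complex and is not taken by the symbol rule, went from 0.259 ± 0.167 to 22.9 ± 5.50 CPM (log2 change 4.23).

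In complex IV, Cox4i1, the common isoform of subunit 4, read 4.92, 5.58 and 7.03 CPM at 34 h and 151, 175 and 193 CPM at 48 h (log2 change 4.67, SE 0.24, adjusted p = 1.3e-20). Cox7b went from 2.22 ± 0.437 to 85.2 ± 10.7 CPM, and Cox7c, another small structural subunit, from 0.245 ± 0.173 to 22.2 ± 3.07 CPM. Cox5a did not pass the test (log2 change -0.24, SE 0.24, adjusted p = 0.38, 169.6 ± 12.1 to 144 ± 19.4 CPM). In complex V the 2 F1 head subunits began far apart. Atp5b, the catalytic beta subunit, already read 458, 520.0 and 528 CPM at 34 h and 537, 591 and 659.8 CPM at 48 h, and its change did not pass the test (log2 change 0.25, SE 0.17, adjusted p = 0.2) and turned negative under median-ratio scaling and with the length trend removed. Atp5a1, the alpha subunit, had 98.8 ± 3.59 CPM at 34 h and 187 ± 23.5 CPM at 48 h, a rise that turned under median-ratio scaling and with the length trend removed. Per transcript length, Atp5b stood 6.82 ± 0.306 times above Atp5a1 at 34 h, 9.19 ± 0.170 times at 42 h and 4.28 ± 0.141 times at 48 h. Later the ratio was 2.19 ± 0.256 in the late 4-cell embryo, 3.46 ± 0.142 in the early 16-cell embryo and 2.87 ± 0.253 in the blastocyst. The stalk subunits Atp5o (OSCP) and Atp5j (F6) went from 1.01 and 1.68 CPM to 60.8 and 75.8 CPM, after Uqcrc1 the largest rises among the members on that scale. Both overlap other annotated genes, Atp5j that of Gabpa, which rose in the same span (below). How many of their reads belong to those genes was not tested.

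Regulators known to bind respiratory promoters rose in the same span on the deposited scale: Gabpa, the DNA-binding part of GABP, went from 2.46 ± 0.692 to 711 ± 22.2 CPM (log2 change 7.70), and Nrf1 from 49.3 ± 2.02 to 115 ± 10.6 CPM (log2 change 1.202); their changes under the 3 scalings were not computed. Of the 14 tested genes on the regulator list, 12 rose and 1 fell on that scale, on which 57.7% of all genes rose. Ppargc1a, a coactivator of this program in adult tissues, lay under 1 CPM in every group mean. Promoters of the members, taken as RefSeq has them from 250 bases before to 50 after the start (GRCm38.p6), were searched on both strands for GCGCATGCG (NRF1), CCGGAAG (ETS factors, GABPA among them) and AAGATGGCG (YY1). Of 34 members with an entry, 6 held the first (17.6%, against 1.75% of 32851 promoters), 13 the second (38.2% against 8.86%) and 2 the third (5.88% against 1.40%). A member was counted if any of its entries matched, whereas the shares of all promoters are per entry, so the units differ. The first sequence was found in Uqcrc1, Uqcr11, Cox6a1, Atp5g2, Atp5k and Atp5l. A match describes letters in a window and is neither a site of binding nor a cause.

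The promoters below show members that rose early and carry such letters. They also show the Cox6b1 and Cox6b2 pair, whose order of levels differs between 48 and 52 h in standard 2-cell embryos. All but that of Uqcrc1 give the bases before the start on GRCm38.p6. They run 5′ to 3′ on the gene's strand, with the searched letters on either strand in capitals. For Uqcrc1 only a stretch around the match is given, which lies after the start, the match beginning at base 31 from it.
Uqcrc1, chr9:108936668-108936697, plus strand: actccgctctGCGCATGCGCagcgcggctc
Atp5j, chr16:84834977-84835226, minus strand: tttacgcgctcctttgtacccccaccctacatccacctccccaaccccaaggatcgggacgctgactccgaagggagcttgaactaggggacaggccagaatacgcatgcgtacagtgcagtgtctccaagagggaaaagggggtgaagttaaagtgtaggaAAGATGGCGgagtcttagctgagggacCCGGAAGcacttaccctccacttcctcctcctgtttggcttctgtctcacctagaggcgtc
Atp5k, chr5:108434400-108434649, minus strand: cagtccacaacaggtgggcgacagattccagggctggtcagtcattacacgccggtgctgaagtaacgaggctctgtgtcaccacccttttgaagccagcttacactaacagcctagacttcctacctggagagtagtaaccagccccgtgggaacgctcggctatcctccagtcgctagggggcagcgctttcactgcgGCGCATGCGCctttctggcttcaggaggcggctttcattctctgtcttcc
Cox6a1, chr5:115348959-115349208, minus strand: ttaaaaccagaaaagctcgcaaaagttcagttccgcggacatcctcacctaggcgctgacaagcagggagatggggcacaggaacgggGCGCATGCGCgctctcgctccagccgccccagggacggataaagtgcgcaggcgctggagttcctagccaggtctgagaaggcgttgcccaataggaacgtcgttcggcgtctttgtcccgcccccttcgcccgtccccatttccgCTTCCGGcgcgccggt
Cox6b1, chr7:30626115-30626364, minus strand: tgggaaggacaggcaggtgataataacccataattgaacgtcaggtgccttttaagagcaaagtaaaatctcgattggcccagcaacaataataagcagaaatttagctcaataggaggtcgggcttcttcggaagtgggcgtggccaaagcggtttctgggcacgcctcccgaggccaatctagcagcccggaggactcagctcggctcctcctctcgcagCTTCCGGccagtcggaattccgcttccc
Cox6b2, chr7:4753095-4753344, minus strand: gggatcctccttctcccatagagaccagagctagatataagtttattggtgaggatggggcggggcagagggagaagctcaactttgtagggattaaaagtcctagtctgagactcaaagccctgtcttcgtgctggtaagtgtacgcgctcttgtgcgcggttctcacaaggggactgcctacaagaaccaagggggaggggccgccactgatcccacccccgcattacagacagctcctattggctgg
Atp5j, whose annotated start lies beside that of Gabpa, held both the YY1 and the ETS letters in the entry shown and none of the searched letters in its other entry. Both Cox6a1 and Atp5k held the NRF1 and ETS letters, with the ETS match of Atp5k after the start and so outside the bases shown. Cox6b1 held the ETS letters and Cox6b2 none of those searched in this window.

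Within complex IV, subunits with more than 1 isoform changed their make-up during the course. Cox6b2, the isoform best known from testis, read 38.0, 57.0 and 57.3 CPM at 34 h, 106, 109 and 134 CPM at 48 h, 27.0, 31.9 and 36.5 CPM at 52 h and 1.90, 1.92, 2.42 and 4.15 CPM in the early 4-cell embryo. It was high in the 2-cell libraries up to 48 h and low in every library from the 4-cell stage. Cox6b1, the common isoform, went from 17.9 ± 1.91 CPM at 34 h to 131 ± 41.3 CPM at 55 h and 1522 ± 256 CPM in the blastocyst. Per transcript length, the ratio of Cox6b1 to Cox6b2 was 0.323 ± 0.0543 at 34 h, 0.616 ± 0.137 at 48 h, 3.76 ± 0.389 at 52 h and 48.2 ± 17.0 at 55 h. Cox7a2l, the 7A-related protein that joins complexes III and IV, peaked in the late 8-cell embryo at 389.5 and 661 CPM and was 158 ± 11.1 CPM in the blastocyst. Cox7a1, the heart and muscle isoform of subunit 7A, followed with 26.7 ± 1.15 CPM in the early 8-cell embryo, 4.76 ± 1.13 CPM in the early 16-cell embryo and 2.15 ± 0.556 CPM in the blastocyst. Cox6a1 far exceeded Cox6a2 in the blastocyst (1171 ± 131 CPM, with Cox6a2 under 20 CPM throughout), and of the 3 genes that encode the same mature c-ring protein, Atp5g1 and Atp5g3 stood at 844 ± 168 and 475 ± 179 CPM and Atp5g2 under 20 CPM.

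**Figure D3:**
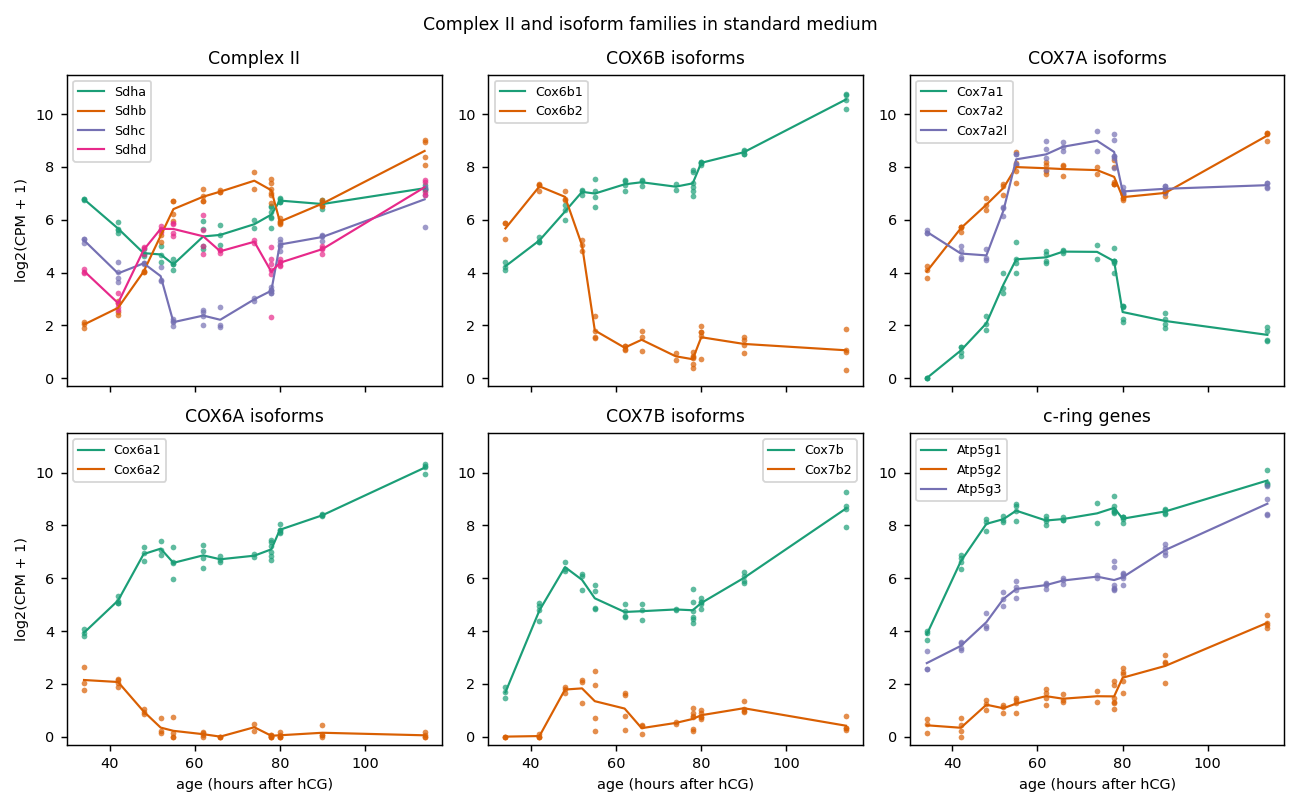
Level, as log2(CPM + 1), of the 4 complex II genes and of 5 families of isoforms in the standard groups against age in hours after hCG; points are libraries and lines join group means. Cox6b2 lies above Cox6b1 at 34 h (50.8 against 17.9 CPM on average) and below it at 55 h (2.598 against 131 CPM), and Sdhb passes Sdha by 52 h.

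From the late 2-cell to the early 8-cell embryo, 32 of 47 members rose and 7 fell, against 24.5% and 47.9% of all genes tested; the medians were 1.21 for the members and -0.46 for all genes. Of the members, 32 rose and 7 fell under median-ratio scaling, 34 and 6 under quantile scaling, and 34 and 7 with the length trend removed. Higher genes were 33.9% of all calls as deposited and 37.6%, 52.9% and 51.2% under these settings. All 8 members of complex III rose, led by Uqcrc1 at 62.0 and 456 CPM in the means of the 2 groups, and Sdhb went from 15.4 ± 0.119 to 133 ± 4.02 CPM. The falls were Sdhc, Cox6a2, Cox6b2, Cox7b, Cox7b2, Cox8a and Cox8c, of which Cox6b2, Cox7b2 and Cox8c are isoforms best known from testis. Of these 7 falls, 5 held under all 3 scalings. Cox6a2, Cox7b2 and Cox8c were low throughout, with highest standard group means of 3.58, 2.68 and 1.48 CPM. Complex III took 7.68% of the members' summed level at 34 h and 20.4% in the early 8-cell embryo.

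From the early 8-cell to the early 32-cell embryo the members split: 24 of 47 rose and 8 fell, against 17.8% and 35.4% of all genes, with medians of 0.51 and -0.18. Of the members, 34 rose and 3 fell under median-ratio scaling, 27 and 4 under quantile scaling, and 28 and 6 with the length trend removed. Higher genes were 33.5% of all calls as deposited and 53.8%, 49.8% and 50.2% under these settings. Atp5b rose from 550.2 ± 53.5 to 2089 ± 135 CPM (log2 change 1.92, SE 0.16, adjusted p = 1.8e-13), after no call in the 2 earlier spans on the deposited scale. Sdhc, which fell in both earlier spans, rose from 3.76 ± 1.43 to 39.7 ± 2.55 CPM (log2 change 3.14, SE 0.23, adjusted p = 3.4e-15). Cox7a1 and Cox7a2l fell by 2.63 and 1.59 on the log2 scale. Subunit ratios per transcript length already differed between the morula (78 h) and the early 16-cell embryo (80 h). Sdhc to Sdhb went from 0.0377 ± 0.00761 to 0.312 ± 0.0344 and Atp5b to Atp5o from 1.255 ± 0.277 to 5.19 ± 0.459. The 100 most abundant genes held 25.3% to 27.1% of reads in early 8-cell and 34.2% to 36.1% in early 32-cell libraries. Stage and library composition cannot be told apart here.

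The blastocyst then stood far above the early 32-cell embryo in nearly every member. Of 47 tested, 40 rose and 1 fell, against 12.6% and 29.1% of all genes, with medians of 1.43 and -0.14. Of the members, 41 rose and 0 fell under median-ratio scaling, 40 and 0 under quantile scaling, and 40 and 0 with the length trend removed. Higher genes were 30.2% of all calls as deposited and 57.9%, 47% and 44.8% under these settings. The fall was that of Cox7a1, which overlapped between the groups and did not pass under any of the 3 scalings. Cox5b, the zinc-binding subunit 5B, went from 84.9 ± 2.08 to 441 ± 98.1 CPM (log2 change 2.34). Sdhb went from 97.0 ± 8.06 to 404 ± 126 CPM (log2 change 1.99) and Atp5c1, the gamma shaft of the F1 motor, from 632 ± 40.3 to 1845 ± 214 CPM (log2 change 1.54). In the same comparison 34 of 36 complex I subunits rose, while of 78 mitochondrial ribosomal proteins 15 rose and 28 fell. Markers of trophectoderm, the outer epithelium that forms at this age, summed to 15249.9 to 20825 CPM in the blastocyst libraries and 925 to 1411 CPM in the early 32-cell libraries; their part in the members' rise was not tested.

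Without pyruvate, more members were lower than higher at 48 and 52 h against standard embryos of the same age. At 42 h, 8 of 47 members were higher and 13 lower, a balance that turned to 20 and 9 under median-ratio scaling, 18 and 8 under quantile scaling and 14 and 10 with the length trend removed (all genes 5.58% and 31.2%, medians -0.17 for members and -0.26 for all genes). At 48 h, 7 were higher and 24 lower (22.6% and 34.3%, medians -0.71 and -0.14). At 52 h, 4 were higher and 34 lower (31.9% and 31.3%, medians -0.96 and 0.08). At 52 h the lower members were 2 of 4 in complex II, 7 of 8 in complex III, 10 of 18 in complex IV and 15 of 17 in complex V. At 48 h the summed levels of complexes II and IV were not lower, at 119 ± 14.1 and 1412 ± 256 CPM without pyruvate and 88.5 ± 4.35 and 1357 ± 177.5 CPM in standard medium. The summed level at 52 h was 2693 ± 136 CPM without pyruvate (n = 4) and 4457 ± 237 CPM in standard medium (n = 3). At 48 h the same 3 settings gave 10 and 20, 11 and 23, and 8 and 25, and at 52 h 4 and 30, 5 and 30, and 4 and 34. Higher genes were 15.2% of all calls at 42 h and 39.7% at 48 h as deposited, and 52% and 54.3% under median-ratio scaling.

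Most members had risen in standard medium between 34 and 48 h as deposited, so the members lower without pyruvate at 52 h are given here by that class. Of the 37 risers, 30 were lower at 52 h without pyruvate, 2 higher and 5 did not pass, with a median log2 change of -1.07. Of the 5 members that had fallen (Sdha, Sdhc, Uqcrc2, Cox6a2 and Cox7a2l), 2 were higher, 2 lower and 1 did not pass. The difference between these classes was not tested. The same count over all genes that rose in that span was not made, so 30 of 37 cannot be read as particular to these subunits. Of all genes tested, 31.3% were lower at 52 h without pyruvate. Uqcrc1 read 135, 150.4 and 152 CPM in the standard libraries at 52 h and 17.6, 17.7, 22.5 and 26.4 CPM in those without pyruvate (log2 change -2.75, SE 0.27, adjusted p = 1.3e-10). The 2 groups were far apart. Cox4i1 read 318, 319 and 348 CPM and 61.5, 70.5, 86.4 and 92.2 CPM, again without overlap (log2 change -2.08, SE 0.23, adjusted p = 2.3e-09). Atp5d, the delta subunit of the F1 head, was at 4.79 ± 1.88 against 33.2 ± 3.62 CPM (log2 change -2.62), and Cox7c at 7.35 ± 1.03 against 44.5 ± 4.01 CPM (log2 change -2.45).

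Sdha and Cox6b2, which are high early and low by 55 h in standard medium, were higher in pyruvate-free 2-cell embryos at 48 and 52 h. Sdha read 23.5, 24.8 and 28.8 CPM at 48 h in standard medium and 54.0, 70.9, 74.5, 81.3 and 93.1 CPM without pyruvate (log2 change 1.49, SE 0.20, adjusted p = 1.2e-07). No library of one group reached the other. At 52 h Sdha overlapped between the groups, at 36.7 ± 8.53 CPM without pyruvate and 25.1 ± 5.52 CPM with it (log2 change 0.52, SE 0.21, adjusted p = 0.033), and at 55 h it did not pass, at 14.8 ± 5.09 against 18.9 ± 2.28 CPM in the 4-cell embryos (log2 change -0.39, SE 0.20, adjusted p = 0.092). Cox6b2 read 27.0, 31.9 and 36.5 CPM at 52 h in standard medium and 98.3, 111, 124 and 140.3 CPM without pyruvate (log2 change 1.86, SE 0.25, adjusted p = 7.1e-08). At 55 h it was still 37.1 ± 12.2 CPM in pyruvate-free 2-cell embryos, against 2.598 ± 1.06 CPM in standard 4-cell embryos. The ratio of Cox6b1 to Cox6b2 per transcript length without pyruvate was 0.240 ± 0.0177 at 48 h, 0.478 ± 0.0478 at 52 h and 3.52 ± 1.27 at 55 h. Cox8a, the common isoform of subunit 8, was also higher at 52 h, at 502, 535, 550.4 and 632 CPM without pyruvate and 303, 328 and 341 CPM with it. Markers of the oocyte's stored RNA summed to 4398 to 5048 CPM at 52 h without pyruvate and 744 to 921 CPM in standard medium, and 2-cell activation genes to 2268 to 2793 and 1023 to 1489 CPM; their part in these differences was not tested. At 52 h complex I subunits had 3 higher and 25 lower of 36, and mitochondrial ribosomal proteins 5 and 56 of 78.

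At 55 h the pyruvate-free embryos were still at 2 cells while the standard embryos had reached 4, so medium and stage cannot be told apart. Of 47 members, 3 were higher and 26 lower (all genes 37.7% and 19.5%, medians -0.59 and 0.27), and the 3 scalings gave 2 and 33, 3 and 29, and 2 and 36. Cox7a2l showed the largest difference below, at 57.1 ± 18.2 against 314 ± 50.2 CPM (log2 change -2.48), and Sdhc was higher, at 12.4 ± 3.78 against 3.36 ± 0.350 CPM (log2 change 1.58). Of the 26 lower members, 15 had no overlap between the libraries of the 2 groups, and the like share of all genes was not computed. The summed level ran from 3400 to 5049 CPM in the pyruvate-free libraries and from 5021 to 7497 CPM in the standard 4-cell libraries, so the ranges overlapped. The pyruvate-free mean was 4139 ± 681 CPM, close to that of standard embryos at 52 h (4457 ± 237 CPM). No test was made between those ages.

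**Figure D4:**
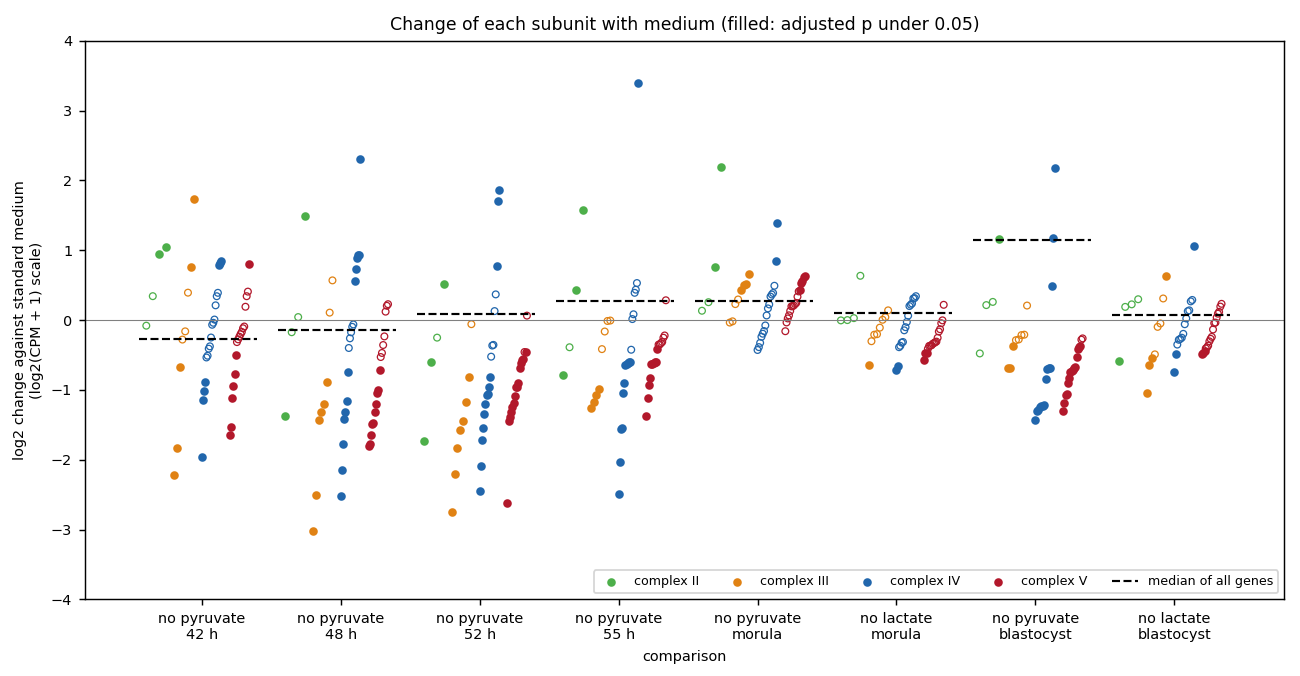
Log2 change of each member against the standard group of the same age, on the log2(CPM + 1) scale, in 8 comparisons of media (at 55 h the standard embryos have 4 cells); each point is a member, coloured by complex and filled where the adjusted p is under 0.05, and the dashed line is the median of all genes. At 52 h most points lie below the line at 0.08, and in pyruvate-free blastocysts most lie below 0 although the line is at 1.15.

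In morulae without pyruvate, 13 of 45 members were higher and 0 lower than in standard medium, but 4 and 4 under median-ratio scaling, 10 and 3 under quantile scaling, and 5 and 7 with the length trend removed. Of all genes 32.8% were higher and 6.62% lower, with medians of 0.23 for the members and 0.28 for all genes. At an unadjusted p under 0.05, limma also gave 0 members lower. Higher genes were 83.2% of all calls as deposited and 57.3% under median-ratio scaling. The pyruvate-free libraries fell into 2 sets: pairs within libraries 1 to 3 or within 4 and 5 differed by 11.8 to 24.0 times counting noise and pairs across them by 36.2 to 44.5 times. Trophectoderm markers summed to 271, 324, 271, 1107 and 890.4 CPM in libraries 1 to 5, and their part was not tested. Without libraries 4 and 5, a setting chosen after seeing the data, 15 were higher and 1 lower. Without standard morula libraries 1 and 2, 24 were higher and 0 lower. Shares of all genes with libraries left out are not given here or below, so such counts cannot be read as particular to the members. The 3 members higher under every scaling were Sdhd, Sdhb and Cox6b2. Sdhd, a membrane anchor of complex II, read from 3.96 to 30.6 (median 17.5) CPM in the 6 standard libraries and 55.4, 78.0, 78.0, 79.0 and 79.7 CPM in the 5 without pyruvate, which all lay above (log2 change 2.19, SE 0.30, adjusted p = 8.3e-06). Sdhb read from 97.2 to 187 (median 135) CPM and 206, 220.3, 237, 248 and 265 CPM, also without overlap (log2 change 0.76, SE 0.15, adjusted p = 0.0003).

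Without lactate, limma called 0 members higher and 6 lower than in standard morulae (2 and 11 at an unadjusted p under 0.05; all genes 8.37% and 3.42%, medians -0.16 and 0.10); this comparison and the one above share the standard libraries. The lower ones were Uqcr11, Cox6c, Cox6c2, Atp5c1, Atp5h and Atp5l. Uqcr11, a small subunit of complex III, read from 104 to 177.3 (median 123) CPM in standard medium and 71.2, 71.9, 87.0, 88.5 and 89.2 CPM without lactate, with no overlap (log2 change -0.64, SE 0.15, adjusted p = 0.0069). Without standard morula libraries 1 and 2 there were 2 higher and 7 lower, with Cox6c2 and Atp5h no longer past the threshold. All 6 were lower under the 3 scalings too, but the count went to 3 when no lactate library 1, 4 or 5 was left out. Compared directly, morulae without pyruvate had 20 members higher and 1 lower than morulae without lactate (all genes 29.4% and 13%, medians 0.39 and 0.19), and the scalings gave 15 and 1, 18 and 1, and 13 and 3. Without pyruvate-free libraries 4 and 5 there were 21 and 0.

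Pyruvate-free morulae with the inhibitor differed in both directions from those without it. The inhibitor and library composition cannot be told apart here. As deposited, 9 of 45 members were higher and 17 lower, and 32 and 4 were so under median-ratio scaling, 14 and 7 under quantile scaling, and 20 and 7 with the length trend removed. Of all genes 8.61% were higher and 67.1% lower, with medians of -0.20 for the members and -0.90 for all genes. Median-ratio scaling moved the median of all genes to -0.13 and the share of higher genes among all calls from 11.4% to 48.9%. Lower as deposited and under the 3 scalings were Sdhb, Uqcr11, Cox7a1 and Cox7a2l, and higher were Uqcrb, Uqcrh, Cox6a1, Cox6b1, Cox6c2, Cox8a, Atp5b and Atp5e. Without pyruvate-free libraries 4 and 5 there were 10 higher and 17 lower, and Atp5e no longer passed. Sdhb read 39.6, 44.2, 46.9 and 52.4 CPM with the inhibitor, far below the 5 libraries without it (log2 change -2.34, SE 0.16, adjusted p = 1.4e-10). Atp5b read 1536, 1652, 1662 and 1872 CPM with the inhibitor and 567, 594, 703, 1025 and 1098 CPM without, with no overlap (log2 change 1.13, SE 0.18, adjusted p = 1.3e-05). Uqcrb, a ubiquinone-binding subunit of complex III, read 255, 257, 288 and 316 CPM with it and 80.2, 102, 117, 123 and 124 CPM without (log2 change 1.36, SE 0.18, adjusted p = 1.1e-06).

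The inhibitor libraries lay near the standard early 16-cell libraries (80 h) in these genes, with 45.8 ± 5.36 against 59.9 ± 4.23 CPM for Sdhb, 1680.3 ± 139.9 against 1750.2 ± 132 CPM for Atp5b, 279 ± 28.8 against 238 ± 9.49 CPM for Uqcrb and 41.1 ± 2.76 against 44.8 ± 3.54 CPM for Uqcr11, a likeness seen after the values were known and not tested. Their composition was also near: the 100 most abundant genes held 36.4 ± 1.30% of reads with the inhibitor and 33.1 ± 0.672% in the early 16-cell embryo, against 21.8 ± 1.12% in pyruvate-free and 27.6 ± 4.05% in standard morulae (SD beside each mean). Mitochondrially encoded genes held 6.04 ± 2.11%, 5.74 ± 0.503%, 1.04 ± 0.825% and 3.58 ± 2.52% of reads in the same order, and the part of these shares in the members' values was not tested.

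In blastocysts without pyruvate, most members of complexes IV and V were lower than in standard blastocysts on every scale tried. Medium and the PVA label of the standard libraries cannot be told apart here. Of 43 members tested, 29 were lower and 4 higher, against 7.14% and 80.8% of all genes, with medians of -0.68 for the members and 1.15 for all genes. By complex, 0 of 4 members of complex II, 3 of 8 of complex III, 11 of 14 of complex IV and 15 of 17 of complex V were lower as deposited; under median-ratio scaling 3, 8, 12 and 17 were. At an unadjusted p under 0.05, limma gave 0 of complex II lower. The summed level was 18304 ± 1465 CPM without pyruvate (n = 5) and 30987 ± 2748 CPM in standard medium (n = 4). Libraries without pyruvate had 13958 ± 104 genes above 1 CPM and standard ones 11605 ± 271, and their 100 most abundant genes held 24.5 ± 0.794% and 42.3 ± 1.73% of reads. Median-ratio scaling brought the median of all genes to 0.07 and the share of higher genes among all calls from 91.9% to 47.1%. The members higher and lower numbered 1 and 40 under median-ratio scaling, 3 and 27 under quantile scaling, and 2 and 40 with the length trend removed. Lower as deposited and under these 3 settings were 24 members, 1 in complex III, 10 in complex IV and 13 in complex V, and higher was Cox7a1.

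Atp5b, the catalytic subunit of ATP synthase, read 2665, 3377, 3608 and 5271 CPM in standard blastocysts and 1398, 1401, 1577, 1764 and 1828 CPM without pyruvate (log2 change -1.19, SE 0.19, adjusted p = 9e-06). Atp5c1 read 1584, 1758, 1989 and 2047 CPM and 622, 722, 774, 794 and 838 CPM (log2 change -1.30, SE 0.14, adjusted p = 9.9e-08). Every pyruvate-free library lay below every standard library for both genes. In complex IV, Cox8a read 1127, 1409, 1451 and 1477 CPM in standard medium and 419.6, 435, 492, 599 and 606 CPM without pyruvate (log2 change -1.43, SE 0.18, adjusted p = 6.2e-07). Cox5a read 1662, 1972, 2041 and 2245 CPM and 716, 739.5, 892, 925 and 932 CPM (log2 change -1.23, SE 0.15, adjusted p = 5.6e-07). Cox4i1 was lower by the test but its libraries spread widely in standard medium, at 1183, 1632, 2426 and 3294 CPM, and overlapped the 1029.6, 1088, 1107, 1121 and 1191 CPM without pyruvate.

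Within complex IV, Cox7a1, Cox7a2l and Cox6b2 were higher as deposited, and of these Cox7a1 was so under the 3 scalings too, at 1.62, 1.75, 2.43 and 2.79 CPM in standard and 10.98, 11.7, 12.2, 14.2 and 17.3 CPM in pyruvate-free blastocysts (log2 change 2.18, SE 0.17, adjusted p = 5.2e-09). Sdha read 139, 142, 143 and 158 CPM and 292, 305, 317, 356 and 366 CPM, with every pyruvate-free library above (log2 change 1.16, SE 0.13, adjusted p = 1.8e-07), but its direction turned under median-ratio scaling and with the length trend removed. Sdhb, Sdhc and Sdhd did not pass, with log2 changes of 0.21, -0.48 and 0.26, and were lower under median-ratio scaling and with the length trend removed. In complex III the core proteins Uqcrc1 and Uqcrc2 did not pass either (log2 changes 0.21 and -0.21) and were lower in the same 2 settings, while Uqcrb, Uqcr10 and Uqcrfs1 were lower as deposited. As a share of the members' summed level, complex II went from 2.65% in standard to 5.68% in pyruvate-free blastocysts and complex III from 16.3% to 23.6%, while complex IV went from 36.3% to 29.0% and complex V from 44.8% to 41.7%. Trophectoderm markers summed to 15249.9 to 20825 CPM in standard and 8899 to 9682 CPM in pyruvate-free libraries, and markers of the inner cell mass and primitive endoderm to 223 to 328 and 383 to 450.0 CPM; their part in these values was not tested.

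**Figure D5:**
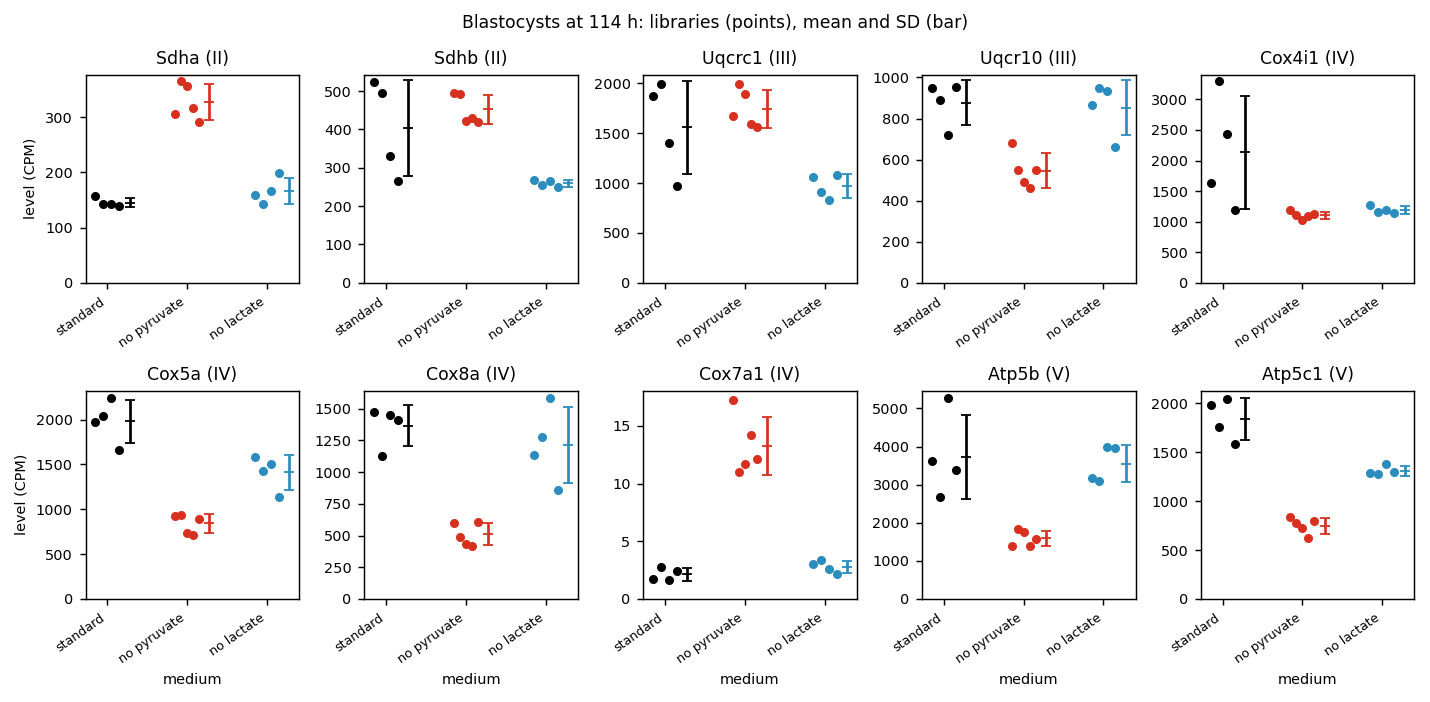
Level (CPM, axes from 0) of 10 members in every blastocyst library by medium; points are libraries, and the bar beside them gives the mean and SD. Atp5b, Atp5c1, Cox5a and Cox8a are lower in each of the 5 pyruvate-free libraries than in any standard library, Sdha and Cox7a1 are higher, and the standard libraries of Cox4i1 spread from 1183 to 3294 CPM.

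For other genes of respiration in pyruvate-free blastocysts the counts on the deposited scale were these: complex I subunits had 9 higher and 8 lower of 36, assembly factors of complexes II to V 34 higher and 1 lower of 37, enzymes of the citric acid cycle 7 higher and 0 lower of 14, and subunits and carriers outside the symbol rule 2 higher and 1 lower of 6, while 66 of 78 mitochondrial ribosomal proteins and 14 of 14 regulators were higher. None of the 6 mitochondrially encoded subunits of complexes III to V passed limma's test, 0 did at an unadjusted p under 0.05, and mt-Co1 had a log2 change of -0.13. Mitochondrially encoded genes held 1.79% to 10.6% of reads in the standard libraries and 4.11% to 6.18% in the pyruvate-free ones. With that spread, the lack of a call does not show an unchanged level. Nrf1 read 88.2 ± 10.7 CPM without pyruvate and 23.4 ± 3.78 CPM in standard medium (log2 change 1.88). Of all genes tested on this scale, 80.8% were higher and 7.14% lower, with a median of 1.15, so these counts stand beside a general shift.

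The comparison of blastocysts without lactate uses the same standard libraries. Of 43 members, 9 were lower and 2 higher (all genes 9.29% and 14%, medians -0.13 and 0.07). The lower ones were Sdhb, Uqcr11, Uqcrc1, Uqcrfs1, Cox4i1, Cox5a, Atp5c1, Atp5f1 and Atp5o, and Cox6b2 and Uqcrh were higher. Leaving out 1 library moved the lower count to between 1 and 11, and a fit on only the 2 groups left 1. Atp5c1 read 1274, 1286, 1299 and 1381 CPM without lactate, all below the standard libraries (log2 change -0.49, SE 0.15, adjusted p = 0.024), and did not pass under quantile scaling or with the length trend removed. Trophectoderm markers summed to 9113 to 11262 CPM without lactate, below the standard range; their part was not tested. Set directly against each other, pyruvate-free blastocysts had 6 members higher and 27 lower than lactate-free ones (all genes 80.7% and 8.05%, medians -0.56 and 1.11), and the 3 scalings gave 1 and 42, 7 and 22, and 2 and 36. Cox7a1 was the member higher on each of these scales.

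The effect of pyruvate withdrawal differed between blastocyst and morula for most members. The test of that difference called 33 of 45 lower in the blastocyst effect and 3 higher (all genes 12.1% and 46%, medians -0.85 and 0.60), and the 3 scalings gave 39, 24 and 37 lower and 1, 3 and 1 higher. Without standard morula libraries 1 and 2 there were 35 lower and 2 higher, and without pyruvate-free morula libraries 4 and 5 34 and 2; Cox7a2l lost its call in both. Atp5c1 had a difference of -1.63 (SE 0.22) and Cox5a of -1.60 (SE 0.31) on the log2 scale. The higher ones were Sdha, Cox7a1 and Cox7a2l, of which Sdha and Cox7a2l turned negative under median-ratio scaling. For lactate withdrawal the same test called 1 higher, Cox6c2, and 1 lower, Cox4i1 (all genes 4.04% and 5.54%, medians 0.01 and -0.06). Without standard morula libraries 1 and 2 there were 0 and 3.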

How the data were processed

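Expression was measured by Smart-seq2 in 85 libraries of mouse embryos. The submitters' processing notes name STAR 2.6.1d and the mm10 build; the counting program and its use of strand are not given in the sources used here. The deposited values are CPM, to each of which an offset of 0.0001 had been added, as the file's values show. The offset was subtracted; 6 columns that match no sample's labels and 26 rows named by numbers were not used. Whole reads could not be recovered: 69.8% to 78.5% of the values of at most 20 reads lay within 0.1 of a whole number.

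The 47 members were taken by symbol and matched to GENCODE vM21 for identity and transcript length. Of the genes, those that passed 1 CPM in 3 or more of the libraries fitted were tested with limma 3.58.1 in R 4.3.3, on log2(CPM + 1) with a mean trend, two-sided, with Benjamini-Hochberg adjustment over all genes of each of 17 comparisons. All standard groups shared 1 fit, as did the groups from 34 to 55 h, the morulae, and the blastocysts; the differences of effects used the morula and blastocyst groups together, without the inhibitor group. The script was tested on simulated data with known changes.

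Any member could be named. In each comparison the 3 largest rises and falls past the threshold, whose groups did not overlap and whose larger mean reached 20 CPM, complex II, the core subunits and the isoform families came first; among genes outside the rule these were Cyc1, Ndufa4, mt-Co1, Ppargc1a, Nrf1, Gabpa and Tfam. Cox8b was not analysed here. Alternatives were a pseudocount of 0.1, no filter, median-ratio and quantile scaling, removal of each library's trend with gene length, a fit on only the groups compared, the replicate number as a block, and leaving out libraries, of which the removal of no pyruvate morula libraries 4 and 5 was chosen after seeing the data. The members, lists and tests were chosen with earlier results of these data known. Libraries of a group differed by 2.61 to 59.4 times counting noise at the inferred depths, so none was counted as a duplicate. Python 3.11.15 with numpy 2.4.6 and pandas 2.3.3 was used for summaries, and matplotlib 3.10.9 for figures.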

Additional observations from a re-analysis of the deposited data

Results flagged for a closer look

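Among 80 summed levels in the 16 groups of 4 or more libraries, 4 had a library far from the others of its group, where chance alone marks about 1 in 20 groups. These were no pyruvate very late 2-cell library 2 in the sum of all members (2896.7 CPM), early 16-cell library 3 (235.94 CPM) and mid 2-cell library 3 (92.518 CPM) in complex II, and no pyruvate morula library 1 in complex V (3713.1 CPM).

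The effect of pyruvate withdrawal differed between blastocyst and morula by the test of that difference, higher in the blastocyst for 3 members and lower for 33. For lactate withdrawal 1 member was higher and 1 lower.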

How the results depend on the processing

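Of 578 recomputed counts of members called, 477 lay within 1.5 times the reported value, as did 282 of the 328 made without 1 library. Of 185 log2 changes of named members and 2982 recomputations, 2739 kept their direction and their side of the threshold, 203 lost the call, 17 gained it and 23 turned; the cause was not tested.

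Members called under another setting were as follows. Late against early 2-cell had 24 higher and 15 lower under median-ratio scaling, with 12 lower under quantile scaling and 10 with the length trend removed. Early 32-cell against early 8-cell had 3 lower (median-ratio) and 4 (quantile). Blastocyst against early 32-cell had 3 lower with a pseudocount of 0.1 and 0 with no filter or any of the 3 scalings. No pyruvate at 42 h had 20 (median-ratio), 18 (quantile) and 14 (length) higher and 8 lower (quantile), and at 48 h 11 higher (quantile). No pyruvate morula had 4 (median-ratio) and 5 (length) higher, 24 higher without standard morula libraries 1 and 2, and 4, 3 and 7 lower under the 3 scalings; without its libraries 4 and 5, chosen after seeing the data, it had 1 lower and the comparison with no lactate morula 0 lower. No lactate morula had 2 higher without these libraries and 10 (length) or 3 (only the groups compared) lower. The inhibitor comparison had 32, 14 and 20 higher and 4, 7 and 7 lower under the 3 scalings. No pyruvate against no lactate morula had 13 higher and 3 lower (length).

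No pyruvate blastocyst had 1 (median-ratio) and 2 (length) higher. No lactate blastocyst had 0 higher with no filter and 1 under median-ratio or quantile scaling or on only the groups compared, and 3 (no filter) or 1 (only the groups compared) lower. No pyruvate against no lactate blastocyst had 1 (median-ratio) and 2 (length) higher and 42 lower (median-ratio). The pyruvate difference of effects had 1 higher under median-ratio scaling or with the length trend removed. The lactate difference had 0 higher with no filter, median-ratio scaling or without standard morula libraries 1 and 2, and 2 (length) or 3 (without these libraries) lower.

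Without 1 library, early 32-cell against early 8-cell gave 5 to 8 lower, blastocyst against early 32-cell 0 to 2, no pyruvate morula 0 to 1, no lactate morula 0 to 1 higher and 3 to 9 lower, no pyruvate against no lactate morula 0 to 1 lower, no lactate blastocyst 0 to 2 higher and 1 to 11 lower, and the lactate difference 0 to 2 in each direction. The lower count of no lactate blastocyst was 2 without standard library 1 or 2 and 4 without standard library 3, and 4, 1, 4 and 5 without no lactate library 1, 2, 3 and 4.

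Log2 changes turned as follows under median-ratio scaling. For late against early 2-cell they were Sdhd -0.93, Atp5b -1.55, Atp5a1 -0.88, Cox6b2 -0.58 and Cox8a -0.84; for the inhibitor, Cox4i1 1.02; for no pyruvate blastocyst, Sdha -0.27, Cox7a2l -0.93, Sdhb -1.21, Sdhd -1.16 and Uqcrc1 -1.22; for the pyruvate difference, Sdha -0.09 and Cox7a2l -0.31. Quantile scaling turned Sdhd (-0.82, late against early 2-cell). With the length trend removed, Sdhd (-0.06), Atp5b (-0.71) and Atp5a1 (-0.07) turned for late against early 2-cell, Cox4i1 (0.57) for the inhibitor, and Sdha (-0.15), Cox7a2l (-0.35), Sdhb (-0.66), Sdhd (-0.63) and Uqcrc1 (-0.87) for no pyruvate blastocyst.

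Same-numbered libraries of compared groups did not deviate together in every pair (correlations -0.25 to 0.20), so the numbers were not taken as a pairing, and in no comparison did every library correlate best with its own number. The numbers are those of the sample titles, which in some groups differ from the numbers in the column names. A pairing by the column names was not examined and could have been missed. With the replicate block, no lactate blastocyst had 1 member higher and the lactate difference 0; other counts stayed within 1.5 times. Levels under about 1 CPM rest on few reads at these depths.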
